A study of Mus musculus with 22 samples.

Results

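The genes described here are 8 genes grouped as identity genes of projection neurons of the cerebral cortex: Tbr1, Fezf2, Bcl11b, Cux1, Cux2, Neurod2, Neurod6 and Reln. They were found by gene name, or by an older synonym such as Cutl1 for Cux1 and Zfp312 for Fezf2. On the array they were read by 15 of 41174 probes, and they are 8 of 20615 genes named there. The array's 28827 features, the units tested, are genes or probes without a gene symbol. Projection neurons are the excitatory neurons that send long axons out of the cortex, and transcription factors divide them by layer and target. Tbr1 marks early-born neurons of the deep layers that project to the thalamus, Fezf2 specifies neurons that project below the cortex, and Bcl11b (Ctip2) acts downstream of it in their axons and is also abundant in the striatum. Cux1 and Cux2 mark later-born neurons of the upper layers, Neurod2 and Neurod6 are basic helix-loop-helix factors of newly postmitotic excitatory neurons, and Reln encodes reelin, the secreted protein by which Cajal-Retzius cells order the layers. In RNA of a whole brain, a lower signal from fewer cortical neurons and a lower signal from less RNA per neuron cannot be told apart.

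The arrays compared brains of mice labelled knockout for Agtr2, the gene of the type 2 angiotensin II receptor, with brains of control mice. At postnatal day 1 (P1) there were 4 knockout and 4 control animals on 8 arrays, and at embryonic day 15 (E15) there were 8 knockout and 6 control animals on 14 arrays. Each array held 1 knockout and 1 control brain in the dyes Cy3 and Cy5, and the design text calls the animals biological replicates. The labels give no strain, sex or allele, and do not say which part of Agtr2 was removed. Some E15 controls served several knockouts: controls 1 and 6 tie replicate 1 to replicates 4 and 7, and controls 2 and 3 tie replicate 2 to replicates 3 and 8.

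Agtr2, read by 1 probe, differed by 0.11 on the log2 scale at P1 (SE 0.08, adjusted p = 0.715 by limma, n = 4) and by -0.32 at E15 (SE 0.28, adjusted p = 0.817 by limma, n = 8). The E15 value turned to 0.080 without the arrays of control 1, whose Agtr2 intensity was 582, against 71.5 to 126 in the other E15 controls and 74.6 to 136 in E15 knockouts. For Agtr2, E15 knockout over control, its adjusted p was then 0.967 by limma. Whether that probe lies in the removed part is not known, so it checks no label. Between 71.3% and 89.5% of spots were well above background on P1 arrays, and between 74.9% and 89.3% on E15 arrays. Spots marked as outliers, which were left out, numbered 287 to 3343 on a P1 array and 52 to 381 on an E15 array. The number of brains limits the precision of the values, and the 2 orientations of a replicate count as 1. The 2 dye orientations of a replicate, turned the same way, correlated across features by -0.23 to 0.31 at P1 and by -0.18 to 0.70 at E15, where replicates 1 and 2 used a different control on each array. The labels do not number the P1 controls, so that both arrays of a P1 replicate hold the same control is taken from the design text.

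E15 control 1 and E15 knockout 8 stood apart from the other brains in genes of tissue around the brain. Summed over 14 genes of meninges and fibroblasts, the intensity was 60124 in knockout 8, against 5175 to 9805 in the other knockout brains. In E15 controls it was 58944 in control 1, 21467 in control 2 and 5024 to 10634 in the others. Summed over 10 skeletal muscle genes it was 22074 in knockout 8, against 1204 to 5413 in the other knockouts, and 50647 in control 1, against 1113 to 5087 in the other controls. For some of the results on the cortical genes, values without these brains are also given.

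The 5′ flanks of Tbr1, Fezf2, Bcl11b and Neurod6 are shown because these 4 genes moved most alike across replicates. Each line gives 250 bases before to 50 bases after the RefSeq start on build GRCm38.p6, 5′ to 3′ on the strand of the gene. Capitals mark GTGTGA or its reverse complement TCACAC, the core of the site bound by T-box factors such as Tbr1.
Tbr1, chr2:61804203-61804502, plus strand: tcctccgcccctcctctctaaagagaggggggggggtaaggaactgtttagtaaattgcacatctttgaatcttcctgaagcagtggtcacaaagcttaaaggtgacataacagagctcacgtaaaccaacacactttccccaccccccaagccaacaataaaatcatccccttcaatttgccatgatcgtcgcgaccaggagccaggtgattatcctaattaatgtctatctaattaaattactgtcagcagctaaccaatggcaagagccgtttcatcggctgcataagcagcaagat
Fezf2, chr14:12345816-12346115, minus strand: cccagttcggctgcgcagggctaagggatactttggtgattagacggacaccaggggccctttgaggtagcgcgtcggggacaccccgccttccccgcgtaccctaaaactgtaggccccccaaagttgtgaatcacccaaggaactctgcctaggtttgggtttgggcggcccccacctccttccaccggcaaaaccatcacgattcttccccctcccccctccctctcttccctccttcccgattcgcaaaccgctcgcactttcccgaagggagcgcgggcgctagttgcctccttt
Bcl11b, chr12:108003365-108003664, minus strand: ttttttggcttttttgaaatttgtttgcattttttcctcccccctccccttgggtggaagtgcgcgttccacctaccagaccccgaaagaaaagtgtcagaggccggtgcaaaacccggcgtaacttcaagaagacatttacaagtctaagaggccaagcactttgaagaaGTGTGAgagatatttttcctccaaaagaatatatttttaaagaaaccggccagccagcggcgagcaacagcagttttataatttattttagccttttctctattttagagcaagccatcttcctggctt
Neurod6, chr6:55681214-55681513, minus strand: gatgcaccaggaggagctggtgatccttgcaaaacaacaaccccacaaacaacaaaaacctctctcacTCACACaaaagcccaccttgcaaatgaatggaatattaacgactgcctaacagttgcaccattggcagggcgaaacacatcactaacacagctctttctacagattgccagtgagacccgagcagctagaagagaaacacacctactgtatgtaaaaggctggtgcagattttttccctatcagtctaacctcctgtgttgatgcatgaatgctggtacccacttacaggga
Bcl11b held GTGTGA beginning 79 bases before its start and Neurod6 held TCACAC beginning 182 bases before its start. In Tbr1 and Fezf2 these letters do not occur in the window. Among the 9 windows listed for the 8 genes, 3 held the motif on either strand, the third being 1 of the 2 windows of Cux2, beside 14.5% of all 32851 windows in the table. A match is a description of the letters. The share of G and C was 46.0% for Tbr1, 61.3% for Fezf2, 43.0% for Bcl11b and 46.3% for Neurod6, beside a median of 52.7% over all windows.

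The first question was how the levels of these genes stood in brains at P1 against brains at E15. Levels are log2 intensities after normalization over all arrays, 1 value for each animal, and are compared between animals for 1 probe at a time. In control brains the point estimates of all 8 genes lay below 0, while 36.7% of all features lay above 0. Those of Cux2 and Reln, at -0.00017 and -0.00082, were close to 0. Bcl11b was the only member to pass an adjusted p of 0.05. In knockout brains none passed. Over all 24553 features tested in control brains, 11.4% were higher and 22.7% were lower at P1. Over the 24555 features tested in knockout brains, 9.39% were higher and 15.3% were lower at P1. The members' median was -0.44 in control brains and -0.09 in knockout brains, beside -0.09 and -0.08 over all features. All P1 arrays were scanned on 1 day of their own with a later version of the scanner software, so age and scan cannot be told apart.

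Among the genes of deep-layer neurons, Bcl11b had levels of 8.49, 8.80, 8.00 and 7.69 in P1 controls, against 8.61, 8.90 and 9.39 (lowest, median, highest) in E15 controls. The P1 controls lay below the E15 median, and their highest value overlapped the E15 range. Bcl11b fell by 0.68 in control brains (SE 0.22, 95% interval -1.15 to -0.20, adjusted p = 0.0331 by limma, n = 4 and 6). In knockout brains its levels were 8.90, 8.25, 8.66 and 7.53 at P1, against 8.21, 9.04 and 10.17 (lowest, median, highest) at E15. The knockout difference was -0.71 (SE 0.36, adjusted p = 0.162). The call for Bcl11b, control brain at P1 over E15, was lost with a scan-day block (adjusted p = 0.1498), with Cy5 channels only (adjusted p = 0.330), with the mean of both probes (adjusted p = 0.355), and without E15 control 2, 3 or 4 or P1 control 3 or 4 (adjusted p of 0.0513 to 0.104). The brightest Bcl11b probe carries the name of a cDNA clone. The dimmer probe, made to the RefSeq transcript, gave 0.12 in control brains (adjusted p = 0.735) and -0.45 in knockout brains (adjusted p = 0.417), so the 2 probes disagreed in direction in control brains.

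Tbr1 had levels of 6.93, 6.72, 6.85 and 6.22 in P1 controls, against 6.06, 7.37 and 8.05 (lowest, median, highest) in E15 controls. Every P1 control lay below the E15 median, and the lowest E15 value, that of control 1, lay below all of them. The difference was -0.56 (SE 0.31, adjusted p = 0.185). In knockout brains Tbr1 stood at 7.77, 6.44, 7.65 and 6.04 at P1, against 6.09, 7.28 and 7.63 (lowest, median, highest) at E15, a difference of -0.08 (SE 0.37, adjusted p = 0.890). P1 knockouts 1 and 3 lay above every E15 knockout, while knockouts 2 and 4 were near the low end. Fezf2 showed 7.37, 7.33, 6.86 and 6.35 in P1 controls, against 6.15, 7.55 and 8.14 (lowest, median, highest) in E15 controls, a difference of -0.43 (SE 0.34, adjusted p = 0.350). Its groups overlapped throughout, and its knockout difference was -0.46 (SE 0.40, adjusted p = 0.425).

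For the basic helix-loop-helix factors, Neurod2 had levels of 9.38, 9.01, 8.95 and 8.49 in P1 controls, against 8.02, 9.75 and 10.25 (lowest, median, highest) in E15 controls. The difference was -0.59 (SE 0.39, adjusted p = 0.264), and the lowest E15 value was again control 1. In knockout brains its difference was -0.09 (SE 0.39, adjusted p = 0.892). Neurod6 had 8.69, 8.76, 8.17 and 7.42 in P1 controls, against 6.88, 8.87 and 9.75 (lowest, median, highest) in E15 controls, a difference of -0.44 (SE 0.49, adjusted p = 0.512). Its P1 knockout levels of 10.26, 8.08, 9.28 and 7.32 covered a wider range than the E15 knockout levels of 7.47, 9.07 and 9.66 (lowest, median, highest). The difference between the ages in knockout brains was 0.04 (SE 0.57, adjusted p = 0.968).

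The upper-layer genes and Reln had the smallest differences in control brains. Cux1 differed by -0.22 (SE 0.13, adjusted p = 0.203) in control brains and by -0.09 (SE 0.14, adjusted p = 0.677) in knockout brains. Cux2 differed by -0.00017 (95% interval -0.24 to 0.24) in control brains and by -0.03 (95% interval -0.31 to 0.24) in knockout brains. Cux2 levels ran only from 6.61 to 6.69 in P1 controls, against 6.29 to 6.86 in E15 controls. Reln had levels of 9.56, 9.16, 9.13 and 9.17 in P1 knockouts, against 8.35, 9.04 and 9.64 (lowest, median, highest) in E15 knockouts, a difference of 0.21 (SE 0.24, adjusted p = 0.541). In control brains Reln stood at 9.01, 8.92, 9.11 and 8.71 at P1, against 8.09, 9.07 and 9.41 (lowest, median, highest) at E15, a difference of -0.00082 (95% interval -0.47 to 0.47).

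E15 control 1 decided several of these calls. Without it, Tbr1 fell by 0.80 in control brains (adjusted p = 0.0101), Fezf2 fell by 0.68 (adjusted p = 0.0373) and Neurod2 fell by 0.90 (adjusted p = 0.0125), while Neurod6 stood at -0.80 (adjusted p = 0.0655). Without P1 control 2, Cux1 fell by 0.33 (adjusted p = 0.0483). These are limma values adjusted over all features.

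**Figure D1:**
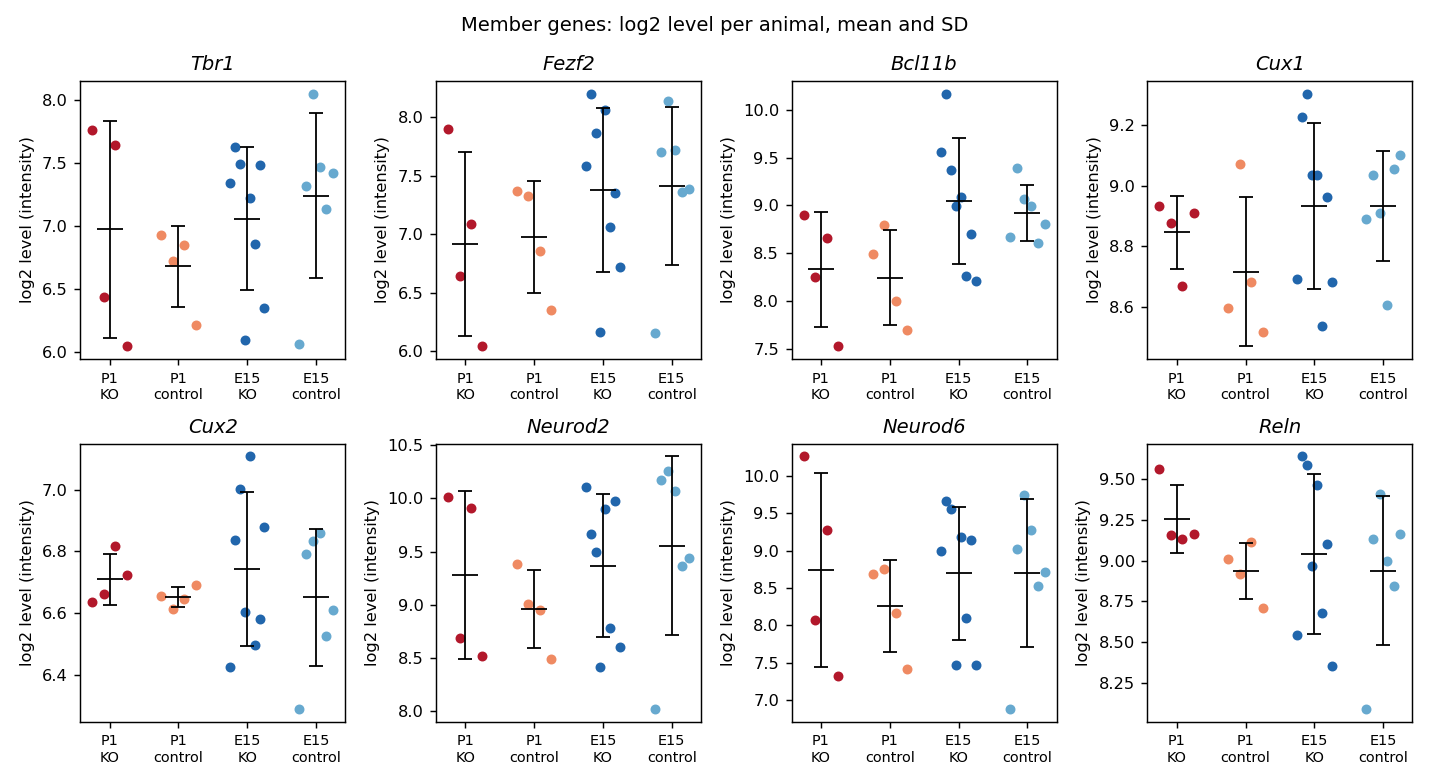
Log2 level of each gene (y axis, log2 intensity) in every animal, by group on the x axis, with points for animals and bars for the mean and SD. The lowest E15 control in 6 of the panels is control 1, and P1 knockouts spread widely for Tbr1, Neurod2 and Neurod6.

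**Figure D2:**
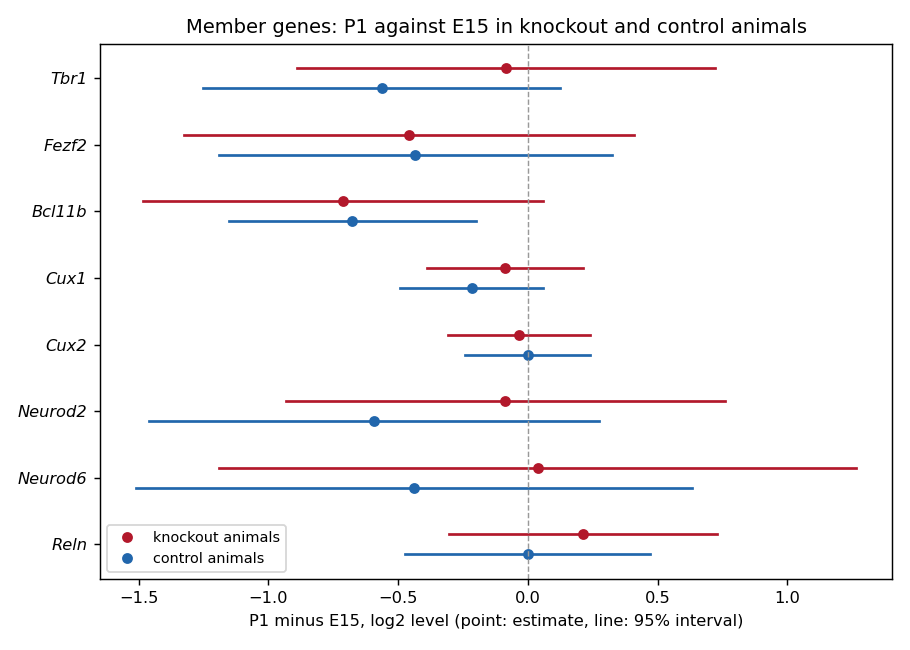
Difference between P1 and E15 in log2 level for each gene, in knockout animals (red, above) and control animals (blue, below), with points for estimates and lines for 95% intervals. Only the control interval of Bcl11b, from -1.15 to -0.20, excludes 0.

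Other genes listed for cortical projection neurons did not share 1 direction between the ages. In RNA of a whole brain their signal may also come from other cells, which was not tested. Of 31 tested genes in a list of other cortical projection neuron genes, 8 were higher and 4 were lower at P1 in control brains, with a median of 0.10. Over all features 11.4% were higher and 22.7% were lower. In knockout brains 3 of the 31 were higher and 2 were lower, beside 9.39% and 15.3% over all features. Mef2c, a transcription factor of maturing excitatory neurons, rose by 2.10 in knockout brains (adjusted p = 0.00837) and by 1.76 in control brains (adjusted p = 0.00194). Cdh8, a cadherin, rose by 0.81 in knockout brains (adjusted p = 0.0110) and by 0.76 in control brains (adjusted p = 0.00475). Pou3f3, a POU factor of upper-layer neurons, fell by 0.78 in knockout brains (adjusted p = 0.00504) and by 0.68 in control brains (adjusted p = 0.0249). Pou3f1, a related POU factor, fell by 0.88 in control brains (adjusted p = 0.0176) and stood at -0.59 in knockout brains (adjusted p = 0.297). Pou3f2, another POU factor of the list, rose by 0.74 in knockout brains (adjusted p = 0.0474) and rose by 0.62 in control brains (adjusted p = 0.00105).

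Genes of the dorsal forebrain wall and its progenitors moved one way among those that passed. In control brains 8 of 12 tested were lower at P1 and 0 were higher, with a median of -0.60, and in knockout brains 4 of 12 were lower. The shares lower over all features were 22.7% in control brains and 15.3% in knockout brains. Lef1, a mediator of Wnt signalling, fell by 1.42 in knockout brains (adjusted p = 0.00283) and fell by 1.40 in control brains (adjusted p = 1.92e-04). Neurog2, the factor that starts neurogenesis of excitatory neurons, fell by 0.90 in knockout brains (adjusted p = 0.0153) and by 0.88 in control brains (adjusted p = 0.0122). Emx1, a homeobox gene of the dorsal telencephalon, fell by 0.57 in knockout brains (adjusted p = 0.00264) and by 0.59 in control brains (adjusted p = 0.0124). Nr2f1, which patterns cortical areas, fell by 0.91 in control brains (adjusted p = 0.0128) and stood at -0.58 in knockout brains (adjusted p = 0.182). Gli3, a mediator of hedgehog signalling, fell by 0.52 in knockout brains (adjusted p = 0.0439) and fell by 0.56 in control brains (adjusted p = 0.0133).

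Of 8 genes listed for Cajal-Retzius cells other than Reln, 4 were lower at P1 in knockout brains and 3 in control brains. The shares lower over all features were 15.3% and 22.7%. In RNA of a whole brain the signal of these 8 genes need not come from Cajal-Retzius cells. Trp73, a p53 relative found in these cells, fell by 0.89 in knockout brains (adjusted p = 0.0456) and by 1.03 in control brains (adjusted p = 0.0122). Lhx5, a LIM homeobox gene, fell by 1.22 in knockout brains (adjusted p = 0.00207) and by 0.87 in control brains (adjusted p = 0.00350). Nhlh2, a basic helix-loop-helix gene, fell by 0.64 in knockout brains (adjusted p = 0.00748) and by 0.47 in control brains (adjusted p = 0.00627). Ebf2, a transcription factor, fell by 0.53 in knockout brains (adjusted p = 0.0462) and stood at -0.33 in control brains (adjusted p = 0.165). Of 6 genes that carry the reelin signal, Crkl, an adaptor protein, was the only one called at either age contrast. It fell by 0.47 in knockout brains (adjusted p = 0.00985) and by 0.45 in control brains (adjusted p = 0.00459). Over 11 pan-neuronal genes, 3 were higher at P1 in knockout brains and 7 in control brains, and 0 were lower in either. The shares higher over all features were 9.39% and 11.4%.

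The second question was whether the knockout changed these genes at P1. None of the 8 was called, and 0 of 23507 features passed (0%), with 2179 at an unadjusted p under 0.05 by limma. Differences are the log2 of knockout over control on the same array, the 2 orientations of a replicate averaged. At P1, 7 of the 8 estimates lay above 0, beside 55.7% of all features. The members' median was 0.21, beside 0.01 over all features.

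Reln had ratios of 0.55, 0.24, 0.02 and 0.46 in P1 replicates 1 to 4. All 4 lay above 0, and Reln was the only member above 0 in every P1 replicate. Its change was 0.32 (SE 0.10, 95% interval 0.07 to 0.56). Its unadjusted p was 0.0211 and its adjusted p was 0.486 by limma over all features, so it did not pass the adjustment. Neurod6 had ratios of 1.57, -0.68, 1.11 and -0.10, Neurod2 of 0.63, -0.32, 0.96 and 0.02, and Tbr1 of 0.84, -0.28, 0.80 and -0.17. In these 3 genes replicates 1 and 3 were high and replicates 2 and 4 were low. Their changes were 0.48 (SE 0.39, adjusted p = 0.755) for Neurod6, 0.32 (SE 0.22, adjusted p = 0.698) for Neurod2 and 0.29 (SE 0.23, adjusted p = 0.741) for Tbr1 (limma, n = 4 each). With 1 replicate left out they ran from 0.11 to 0.86 for Neurod6, from 0.11 to 0.54 for Neurod2 and from 0.11 to 0.49 for Tbr1, with no call. Leaving out replicate 1 (Neurod6, Tbr1) or replicate 3 (Neurod2) gave the lowest value, and leaving out replicate 2 the highest.

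The same replicates were high and low for the other factors of neurons that project below the cortex. Fezf2 had ratios of 0.53, -0.69, 0.23 and -0.31 and a change of -0.06 (SE 0.21, adjusted p = 0.952 by limma). Bcl11b had ratios of 0.41, -0.55, 0.65 and -0.17 and a change of 0.09 (SE 0.21, adjusted p = 0.926 by limma). The RefSeq probe of Bcl11b gave -0.39 (adjusted p = 0.734). Cux1 had ratios of 0.34, -0.20, -0.01 and 0.39, with a change of 0.13 (SE 0.11, adjusted p = 0.764 by limma). Cux2 had the smallest spread, with ratios of -0.02, 0.05, 0.17 and 0.03 and a change of 0.06 (SE 0.05, 95% interval -0.065 to 0.18).

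The 2 orientations of a P1 replicate did not always give the same sign. In replicate 4 only 2 of the 8 genes had the same sign on both arrays, in replicate 1 it was 4, in replicate 2 it was 6 and in replicate 3 it was 7. In replicate 1, Fezf2 stood at 1.36 with the knockout in Cy3 and at -0.31 with the knockout in Cy5, and Bcl11b stood at 1.29 and -0.46. Tbr1, at 1.38 and 0.29, and Neurod6, at 2.28 and 0.86, were above 0 on both. In replicate 2, in the same order of dyes, Bcl11b stood at -1.43 and 0.33, and Neurod6 at -0.92 and -0.44. Neurod6 stood at -0.44 and 0.25 in replicate 4. Across features the 2 orientations correlated by -0.23 in replicate 2 and by 0.12 in replicate 4, or by -0.21 and -0.16 with the dye effect removed.

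At E15 none of the 8 genes was called either, and 0 of 24131 features passed (0%), with 1523 at an unadjusted p under 0.05 by limma. The members' median change was 0.05, beside -0.01 over all features. Neurod6 ran from -2.38 to 1.36, with a median of 0.35, and 5 of 8 replicates lay above 0. Its change was 0.05 (SE 0.37, adjusted p = 0.983 by limma, n = 8). Tbr1 ran from -1.83 to 0.81, with a median of -0.02 and 4 of 8 above 0, and changed by -0.14 (SE 0.26, adjusted p = 0.910). Both had their lowest value in replicate 8 and their highest in replicate 1.

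Fezf2 ran from -1.53 to 0.72 (change -0.02, SE 0.23, adjusted p = 0.991), and Bcl11b from -0.72 to 0.63 (change 0.11, SE 0.16, adjusted p = 0.887). Neurod2 ran from -1.54 to 1.38, with 3 of 8 above 0 (change -0.19, SE 0.29, adjusted p = 0.889). Reln ran from -1.07 to 0.62, with 5 of 8 above 0 (change 0.09, SE 0.19, adjusted p = 0.920). The lowest value of each of these 4 genes was again in replicate 8. Cux1 ran from -0.52 to 0.58 (change 0.05, SE 0.15, adjusted p = 0.951) and Cux2 only from -0.09 to 0.32 (change 0.10, SE 0.06, p = 0.0985, adjusted p = 0.749). The lowest values of Cux1 and Cux2 lay in replicates 6 and 7, not in replicate 8.

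Leaving out replicate 8, whose knockout brain had the high meninges and muscle sums, gave 0.10 for Tbr1, 0.19 for Fezf2, 0.38 for Neurod6 and 0.25 for Reln, none of them called (adjusted p of 0.643 to 0.846). Leaving out the arrays with control 1, and with them replicate 4, gave -0.23 for Tbr1, -0.09 for Fezf2, -0.16 for Neurod6 and -0.15 for Reln (adjusted p of 0.943 to 0.974). All 4 of these genes thus lay above 0 under the first choice and below 0 under the second. Not every member turned: under all E15 alternatives Neurod2 stayed below 0 (-0.43 to -0.014) and Cux2 above 0 (0.031 to 0.22). In replicate 1 the array with control 1 gave 2.21 for Neurod6, 2.41 for Neurod2 and 1.33 for Tbr1, and the array with control 6 gave 0.50, 0.34 and 0.28. Both arrays of replicate 8 used control 3, with Neurod6 at -2.43 and -2.34 and Tbr1 at -1.96 and -1.71 (knockout in Cy3, then in Cy5).

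The E15 arrays were scanned on 3 days, replicates 1 to 4 on a day of their own. Over those 4 replicates the mean ratio was above 0 for all 8 genes, from 0.06 for Neurod2 to 0.76 for Neurod6. Over replicates 5 to 8 it was below 0 for 7 genes, from -0.65 for Neurod6 to -0.17 for Cux1, and 0.02 for Cux2. These means include replicate 8, whose knockout brain had the high meninges and muscle sums. The members' medians in replicates 5 to 8 were 0.17, -0.32, -0.07 and -1.30. Replicates 1 and 4, on the other day, used control 1. With the scan day as a random block, 0 features were called, and the member changes were -0.16 for Tbr1 and 0.02 for Neurod6. The part of the scan day in these values was not tested.

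**Figure D3:**
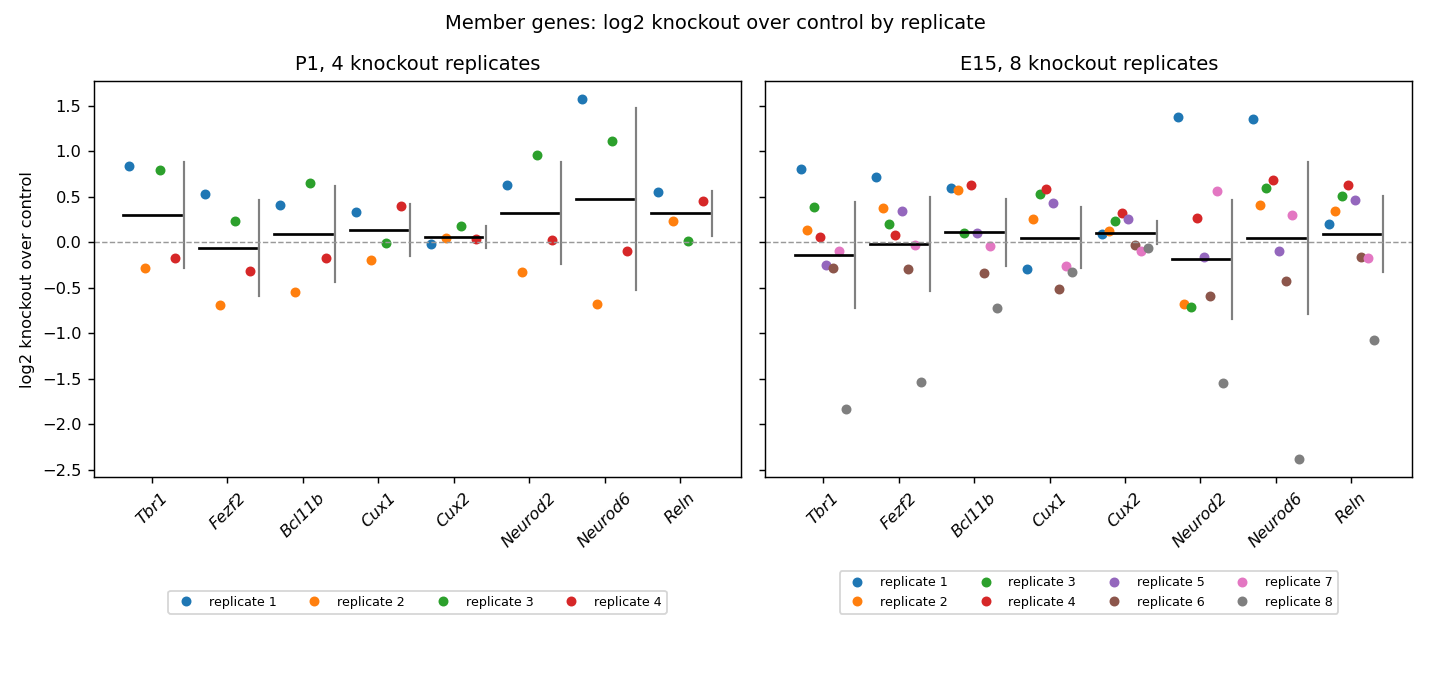
Log2 knockout over control (y axis) of each gene by replicate at P1 and E15, with colours for replicates, black lines for the fitted change and grey lines for its 95% interval. P1 replicates 1 and 3 lie above replicates 2 and 4 for Tbr1, Fezf2, Bcl11b, Neurod2 and Neurod6, and E15 replicate 8 lies lowest in 6 genes.

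The third question was whether the knockout difference itself differed between P1 and E15. None of the 8 genes was called, and 0 of 22246 features passed (0%), with 992 at an unadjusted p under 0.05 by limma. The widest point differences, P1 change minus E15 change, were 0.51 for Neurod2 (SE 0.45, adjusted p = 0.975) and 0.43 for both Tbr1 (SE 0.42, adjusted p = 0.975) and Neurod6 (SE 0.63, adjusted p = 0.978). With 1 replicate left out these ran from 0.30 to 0.74 for Neurod2, from 0.20 to 0.63 for Tbr1 and from 0.065 to 0.82 for Neurod6, and these ranges overlapped. Reln differed by 0.22 (SE 0.28, 95% interval -0.39 to 0.84), Cux1 by 0.08 (SE 0.23), Cux2 by -0.05 (SE 0.09), Fezf2 by -0.04 (SE 0.37) and Bcl11b by -0.02 (SE 0.29). The same contrast compares the age difference of knockout brains with that of control brains.

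The other probes of these genes were dimmer. The 3 other Cux1 probes gave -0.02 to -0.01 at P1, -0.06 to 0.04 at E15 and -0.15 to 0.02 for the age difference in control brains. The other Cux2 probe gave 0.09 at P1, 0.05 at E15 and -0.12 for age. The other Neurod2 probe gave -0.16 at P1, 0.01 at E15 and -0.28 for age, so its P1 sign was opposite to that of the brighter probe. The other Reln probe, which passed the filter on dim probes at E15 but not at P1, gave 0.02 at P1, 0.01 at E15 and -0.05 for age.

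Within a replicate the 8 genes lay mostly on 1 side of 0. At E15 all 8 were above 0 in replicate 4, 7 in each of replicates 1, 2 and 3, and 5 in replicate 5, while 2 were above 0 in replicate 7 and 0 in replicates 6 and 8. At P1, 7 of 8 were above 0 in replicates 1 and 3, 4 in replicate 4 and 2 in replicate 2. The replicate medians ran from -1.30 (replicate 8) to 0.66 (replicate 1) at E15 and from -0.30 (replicate 2) to 0.54 (replicate 1) at P1. Over all features the replicate medians stayed between -0.03 and 0.02.

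Genes of the dorsal forebrain had medians of the same sign as the members in every E15 replicate and in P1 replicates 1 and 3, and of the opposite sign in P1 replicates 2 and 4. At E15 they stood at 0.31, 0.10, 0.26, 0.28, 0.14, -0.13, -0.03 and -0.78 in replicates 1 to 8, and at P1 at 0.16, 0.02, 0.14 and 0.01. The other cortical projection neuron genes stood at 0.15, 0.10, -0.11, 0.08, 0.02, -0.02, 0.05 and -0.01 in E15 replicates 1 to 8. At P1 their medians were 0.25, -0.13, 0.07 and -0.03. In E15 replicates 3 and 7 their sign was opposite to that of the members. In E15 replicate 8, where the members stood at -1.30, 14 of these 32 genes lay above 0. Genes of the hindbrain and spinal cord stood at -0.19, 0.22, -0.20 and 0.17 in P1 replicates 1 to 4, below 0 where the members' medians were highest, and between -0.10 and 0.14 at E15. Astrocyte genes stood at -0.72, 0.25, -0.65 and -0.00068 at P1. Genes listed for Cajal-Retzius cells, Reln left out, stood at -0.07, 0.25, -0.34 and 0.16 at P1. In each P1 replicate their sign was that of the hindbrain and spinal cord genes and opposite to that of the members. At E15 the meninges and fibroblast genes stood at 2.49 in replicate 8, -1.67 in replicate 4 and -1.20 in replicate 1, and muscle genes at 3.63, -3.21 and -1.40 in the same replicates, opposite in sign to the members. In replicate 6, where all 8 members lay below 0, both lists were also below 0, at -0.59 for meninges and -0.92 for muscle. The part of these other genes in the members' ratios was not tested.

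**Figure D4:**
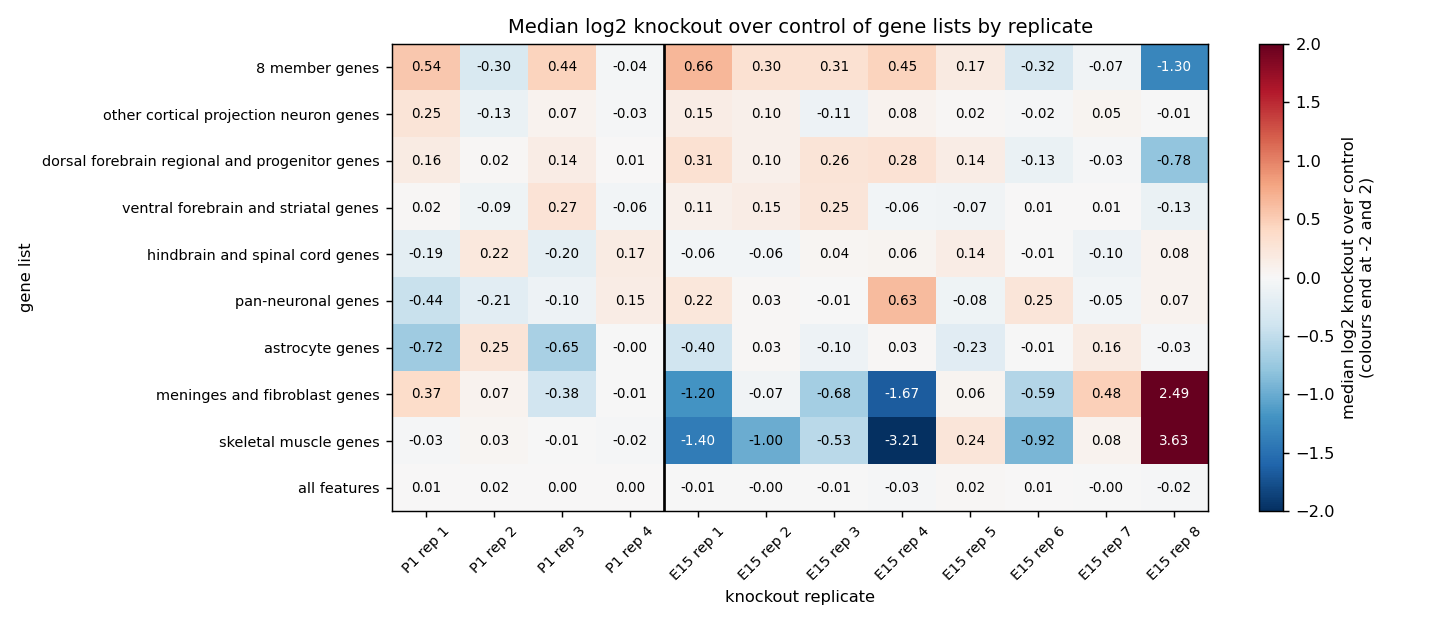
Median log2 knockout over control of each gene list (rows) in each knockout replicate (columns), printed in the cell and coloured up to 2 in either direction. The member row is highest in E15 replicate 1 at 0.66 and lowest in E15 replicate 8 at -1.30, where the muscle row stands at 3.63.

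Levels of single animals showed which brain of a pair stood out. The summed intensity of the 8 genes was 4540, 2315, 3408 and 2004 in P1 knockouts 1 to 4, against 2732, 2781, 2335 and 1783 in their controls. The high ratios of P1 replicates 1 and 3 thus came with high knockout sums, above every P1 control. The dorsal forebrain sum was also highest in those brains, at 9095 and 5404 in knockouts 1 and 3, against 1874 to 4164 in P1 controls. A sum weighs bright genes most. Gene by gene, 6, 6, 7 and 6 of 11 dorsal forebrain ratios lay above 0 in P1 replicates 1 to 4, so the list as a whole hardly separated these replicates. The astrocyte sums of knockouts 1 and 3 were the lowest at P1, at 7434 and 10594, against 16942 to 26182 in P1 controls.

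At E15 the summed intensity of the 8 genes ran from 1905 (knockout 8) to 4777 (knockout 2) in knockout brains, against 1748 (control 1) to 4438 (control 3) in control brains. Knockouts 4 and 6 were also low, at 2292 and 2143. Knockout 4 shared its array with control 1, so that its ratios of 0.06 to 0.68 compare a low brain with a low brain. Replicate 8 compared the lowest knockout with the highest control, control 3. Dorsal forebrain sums were lowest among knockouts in knockout 8, at 2997, and in knockout 4, at 4016. In knockout 6 the sum was 5334, less far below the knockout median of 6918. Control 1 stood at 2659 and control 3 at 10294. The sum of the other cortical projection neuron genes was 13796 in knockout 8, inside the E15 knockout range of 12774 to 16721. In control 1 it was 12375, the lowest of the E15 controls.

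**Figure D5:**
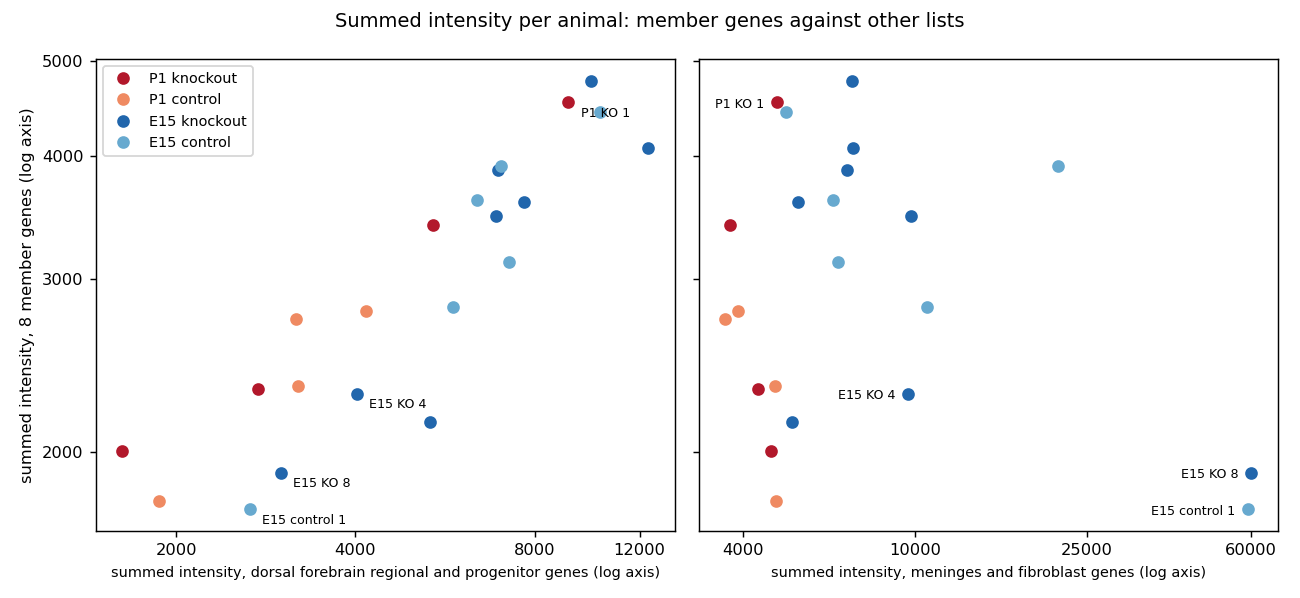
Summed intensity of the 8 genes (y axis, log) in each of the 22 animals against the summed intensity of dorsal forebrain genes (left, x axis, log) and of meninges and fibroblast genes (right, x axis, log), with colours for groups. Animals low in dorsal forebrain genes, such as E15 knockout 8 and E15 control 1, are low in the 8 genes, and these 2 animals lie far right in the meninges panel.

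The lists related to the cortex had no called gene in either knockout comparison, so the genes of lowest p are given as values. At P1 the change of Cdh8 was 0.25 (p = 0.0109, adjusted p = 0.470), that of Nr4a2, a nuclear receptor of subplate neurons, was -0.36 (adjusted p = 0.575), and that of Tle4, a corepressor of corticothalamic neurons, was 0.27 (adjusted p = 0.622). Calb2, the calcium-binding protein calretinin of Cajal-Retzius cells and interneurons, stood at -0.42 (p = 0.00790, adjusted p = 0.439). Vldlr, a reelin receptor, stood at 0.38 at P1 (adjusted p = 0.530) and at 0.21 at E15 (adjusted p = 0.769). The other values of lowest p in these lists at P1 were 0.04 for both Trp73 and Crk, -0.17 for Lhx5, -0.08 for Dab1, 0.13 for Gli3, 0.39 for Nr2f1 and 0.06 for Eomes (adjusted p of 0.618 to 0.885). At E15 Foxp2, a transcription factor of deep-layer neurons, stood at 0.32 (p = 0.0103), Pou3f2 at 0.23, Zfpm2 at 0.21, Crk at 0.27, Trp73 at -0.24 and Dmrt3 at -0.11 (adjusted p of 0.749 to 0.757). The remaining E15 values were 0.19 for Lhx5, 0.14 for Nhlh2, 0.11 for Fyn, 0.09 for Gli3 and -0.16 for Eomes (adjusted p of 0.778 to 0.873).

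Across the 12 replicate ratios, each centred on the mean of its age, the 8 genes differed in how closely they followed their own median. Pearson's r was 0.97 for Neurod6, 0.97 for Fezf2, 0.96 for Tbr1 and 0.91 for Bcl11b. It was 0.82 for Reln, 0.75 for Neurod2, 0.58 for Cux2 and 0.50 for Cux1. The median contains these genes, and replicates share controls and dyes, so the values are a description with no test. E15 replicate 8 lay farthest out, with a median of -1.30 against -0.32 to 0.66 in the others. Pearson's r without it was not computed. Of 21878 features with a value in every replicate, 15 had r over 0.9, including 4 of the 8 genes.

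The 10 other features most like the median were Sox5 (r = 0.96), Celf2 (0.94), Gse1 (0.93), the unnamed probe A_51_P453818 (0.93), Riox1 (0.93), Mycn (0.92), Arl6ip6 (0.91), Thtpa (0.91), Lrrc56 (0.91) and Rasgef1b (0.90). Sox5, a transcription factor of deep-layer cortical neurons and a member of the list of other cortical genes, ran from -0.64 in E15 replicate 8 to 0.27 at E15 and from -0.03 to 0.23 at P1. Celf2, an RNA-binding regulator of splicing, ran from -0.95 in E15 replicate 8 to 0.50 in E15 replicate 1, and stood at 0.76 in P1 replicate 1. Mycn, a growth-promoting transcription factor, stood at -1.12 in E15 replicate 8 and at 0.65 in P1 replicate 1. All 10 had their lowest E15 ratio in replicate 8. They were picked for likeness to a median that is itself lowest there, so this follows largely from the choice.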

How the data were processed

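RNA of whole mouse brain was amplified linearly, dye-labelled and hybridised to 2-colour Agilent arrays, per the labels' protocols. The deposited scanner files hold spot intensity, local background and a log10 ratio of Cy5 over Cy3, made with Agilent Feature Extraction 8.1.1.1 (E15) and 8.5.1.1 (P1), per the file headers. The deposited matrix holds the same log10 ratio, not turned for dye. Per the labels, groups and dyes were taken sample by sample.

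From these, intensity was corrected with normexp (offset 50) and normalized by loess within arrays, and for levels by Aquantile between arrays, on the log2 scale (R 4.3.3, limma 3.58.1, statmod 1.5.0). Control and outlier spots were left out, and a feature had to be well above background in at least 50% of the channels of an age (both ages for the difference, either age for levels). The brightest probe stood for a gene, and at least 5 replicate values at E15 and 3 at P1 were required. The 2 orientations of a replicate were averaged, and where a spot had 1 orientation, as in E15 replicates 3 and 4, the dye effect was removed, estimated from at least 2 replicates whose orientations share a control. Knockout and control were paired by their shared array, with sets of replicates that share controls as a random block (consensus correlation 0.0455 at E15, 0.0691 for the difference, from every 8th feature). The minimum numbers of values and the dye rule were added to the planned design. Tests were limma fits over all features with Benjamini-Hochberg adjustment at 0.05. The labels do not say whether brains share litters, so p-values measure the spread between these samples.

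The members and lists were chosen with earlier results of these data known. All 8 genes are named in every comparison. From the other lists of cortical neurons, dorsal forebrain, Cajal-Retzius cells and reelin signalling, up to 4 called genes of the largest change are named, or up to 3 of the lowest p where none was called, and the 10 features most like the members' median. On simulated data of the E15 comparison (24131 features), 96 of 100 changes of 1 on the log2 scale were recovered, and for P1 (23507 features) 88.6%. False calls numbered 17 and 7. These were independent normal draws with the SD of each feature and without shared controls, and the changed features were picked at random. The SD over E15 replicates was 1.12 for Neurod6, 0.90 for Neurod2, 0.77 for Tbr1 and 0.15 for Cux2. The simulated shares therefore do not give the recovery of the 8 genes. Alternatives covered the signal, background, normalization, filter, outlier spots, probes, dye, scan day, blocks and left-out animals. Promoters came from the RefSeq table on GRCm38.p6, in which all 8 genes matched.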

Additional observations from a re-analysis of the deposited data

Results flagged for a closer look

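In E15 replicate 8, the log2 ratio of knockout over control was -1.83 for Tbr1, -1.53 for Fezf2 and -1.07 for Reln, each separated from the other 7 replicates by a share of the group's whole range above Dixon's 95% critical value for 8 values. In P1 knockout 1, the Reln level of 9.56 stood apart from 9.13 to 9.17 in the other 3 knockout brains in the same way. Of 48 groups of values tested, 4 were separated like this, and chance separates about 5%. The 3 values of replicate 8 come from 1 pair of brains and are not independent.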

How the results depend on the processing

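No member was called in a knockout comparison under any alternative run. By limma, the E15 count of 0 became 1 with scanner processed signals and with the deposited matrix (Bmp2k, 1.46, adjusted p = 0.0301 and 0.0300), and the count for the P1 change minus the E15 change became 3 with no dye effect subtracted (Gip, Rhbg, Stat6). The count for the control brain at P1 over E15, 8385, became 4469 with a scan-day block and 4706 with Cy5 channels only, and ran from 6105 to 8849 with 1 animal left out. For the knockout brain at P1 over E15, 6061 became 1948 with a scan-day block and ran from 3756 (without P1 knockout 3) to 6705, with 3930 without P1 knockout 4. With outlier-marked spots kept, 3989 features were higher and 5723 lower at P1 in control brains, against 2805 and 5580 without them. In knockout brains the counts were 3588 and 3992, against 2306 and 3755. The causes were not tested.

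Without the pairing by array (no replicate block), 0 features were called at either age, with 250 at E15 and 975 at P1 at an unadjusted p under 0.05, and Tbr1, E15 knockout over control, stood at -0.18. Replicate numbers name different animals at the 2 ages. With numbers 1 to 4 as a replicate block the P1 change minus E15 change had 0 calls (3412 at an unadjusted p under 0.05), and turned to -0.051 for Tbr1, P1 change minus E15 change, to -0.14 for Cux1, P1 change minus E15 change, to -0.10 for Reln, P1 change minus E15 change, and to -0.28 for Neurod6, P1 change minus E15 change.

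Other directions turned where the main value lay near 0 or rested on 1 probe or dye. For Bcl11b, P1 change minus E15 change, the values were 0.049 (processed signals), 0.050 (matrix), 0.023 (offset 10) and 0.10 (without arrays of E15 control 1), with -0.21 to 0.20 when 1 replicate was left out. Bcl11b, P1 knockout over control, was -0.39 (RefSeq probe) and -0.15 (mean of probes), with -0.10 to 0.30 in left-out fits, and Bcl11b, control brain at P1 over E15, was 0.12 (RefSeq probe). Fezf2, E15 knockout over control, was 0.049 (median centring), with -0.13 to 0.19, Fezf2, P1 knockout over control, had -0.26 to 0.15, and Fezf2, P1 change minus E15 change, was 0.029 without arrays of E15 control 1, with -0.25 to 0.17.

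For Cux2, control brain at P1 over E15, the values were 0.14 (Cy5 only), 0.0018 (offset 10) and 0.087 (75th percentile), with -0.073 to 0.041 in left-out fits. Cux2, knockout brain at P1 over E15, was 0.17 (Cy3 only) and 0.064 (75th percentile), with -0.078 to 0.019, Cux1, knockout brain at P1 over E15, was 0.15 (Cy3 only), and Cux2, P1 change minus E15 change, was 0.027 without arrays of E15 control 1. Reln, control brain at P1 over E15, was 0.016 (Cy5 only) and 0.021 (quantile), with -0.17 to 0.093. Neurod6, knockout brain at P1 over E15, was -0.093 (Cy5 only) and -0.042 (75th percentile), with -0.47 to 0.51, Neurod2, knockout brain at P1 over E15, was 0.047 (Cy5 only), with -0.33 to 0.17, and Tbr1, knockout brain at P1 over E15, had -0.35 to 0.23.

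Without E15 replicates 3 and 4 the values were -0.11 for Cux1, E15 knockout over control, -0.054 for Reln, E15 knockout over control, -0.15 for Neurod6, E15 knockout over control, -0.0087 for Nhlh2, E15 knockout over control, and -0.066 for Fyn, E15 knockout over control. Without arrays of E15 control 1, an alternative chosen after seeing the data like the RefSeq probe, these comparisons gave -0.012 for both Bcl11b, E15 knockout over control, and Cux1, -0.15 for Reln, -0.16 for Neurod6 and 0.080 for Agtr2, E15 knockout over control. With 1 replicate left out, the ranges were -0.033 to 0.13 for Cux1, -0.14 to 0.38 for Neurod6, -0.27 to 0.098 for Tbr1, E15 knockout over control, -0.24 to 0.048 for Eomes, E15 knockout over control, -0.0047 to 0.19 for Cux1, P1 change minus E15 change, -0.44 to 0.081 for Lhx5, P1 knockout over control, -0.0017 to 0.064 for Trp73, P1 knockout over control, and -0.011 to 0.12 for Crk, P1 knockout over control. Signal over background limited the dimmer probes, and the number of brains limited every interval.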
